A study of Mus musculus with 12 samples.

Results

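The drug by time interaction was measured over all 12 arrays of 12 in the series, which tested how long-term exposure to the MEK inhibitor GDC-0623 differs from short exposure. MC38 cells, a mouse colon carcinoma line, were grown as monolayers and received GDC-0623 at 100 nM or its solvent DMSO at the same concentration. RNA was taken 24 h and 72 h after the addition, so that the arrays formed 4 groups of 3 (24h DMSO, 72h DMSO, 24h GDC-0623 and 72h GDC-0623), which the labels call biological replicates. All groups were the same line, so the results describe 1 cell line, 1 dose and 1 drug, and no untreated cells or cells from before the addition were among the arrays.

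For each gene the interaction was the drug effect at 72 h minus the drug effect at 24 h on the log2 scale. The same number is the change from 24 h to 72 h under GDC-0623 minus the change from 24 h to 72 h in DMSO, and this second reading separates what changed in treated cells from what changed in the controls. Positive values are called higher and negative values lower. A gene was assigned to the treated arm if its change under GDC-0623 passed the test in the direction of the interaction while that in DMSO did not oppose it, to the control arm if the change in DMSO passed the test against that direction while that under GDC-0623 did not pass along it, to both arms if both held, and otherwise to neither. The assignment is a description from 2 tests, and a change that did not pass is not shown to be 0.

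MEK is the kinase that activates ERK, and ERK in turn drives transcription of growth and feedback genes such as Egr1, Dusp6 and the Sprouty family. Interferon-stimulated genes are a separate programme, switched on through STAT and IRF proteins, that arms cells against viruses and raises antigen presentation. Cells kept in a dish without passage also change with time, through crowding and use of nutrients, and the ATF4, hypoxia and sterol programmes respond to such conditions.

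The values had similar distributions on all arrays, with medians from 4.63 to 4.70, and the median SD within a group lay between 0.085 and 0.110. On the first principal component, which held 58.6% of the variance, replicate 1 of 72h GDC-0623 stood apart at 77.4 against 44.8 and 49.8 for the other 2. RMA gives no detection call, and readings between 3 and 5 were treated as background, so that a fold change from such a level depends on the background. In RNA from a whole culture, less RNA per cell cannot be told apart from fewer cells of a kind.

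The interaction passed the test (limma, Benjamini-Hochberg adjusted p under 0.05) in 561 of 18193 genes, higher in 295 (1.62%) and lower in 266 (1.46%). The 2 directions had different origins in the arms. Of the 295 higher genes, 262 (88.8%) belonged to the treated arm, 24 to the control arm, 6 to both arms and 3 to neither. Of the 266 lower genes, 64 (24.1%) belonged to the treated arm, 167 (62.8%) to the control arm, 30 (11.3%) to both and 5 to neither. Higher treated-arm genes had a median change of 1.22 under GDC-0623 and 0.13 in DMSO. Lower control-arm genes had a median change of -0.03 under GDC-0623 and 0.61 in DMSO. A lower interaction was thus most often a rise of the control cells that the treated cells did not share to the same degree, and 22 of the 167 rose under GDC-0623 too.

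Large interactions were mostly gains. Among genes with an interaction of at least 1 on the log2 scale, 144 were higher, of which 140 belonged to the treated arm. In the opposite direction 37 genes passed that size, 24 in the control arm, 8 in the treated arm and 5 in both. Without replicate 1 of 72h GDC-0623, 278 genes were higher and 257 lower, and 252 and 213 of them were called on all arrays too.

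**Figure D1:**
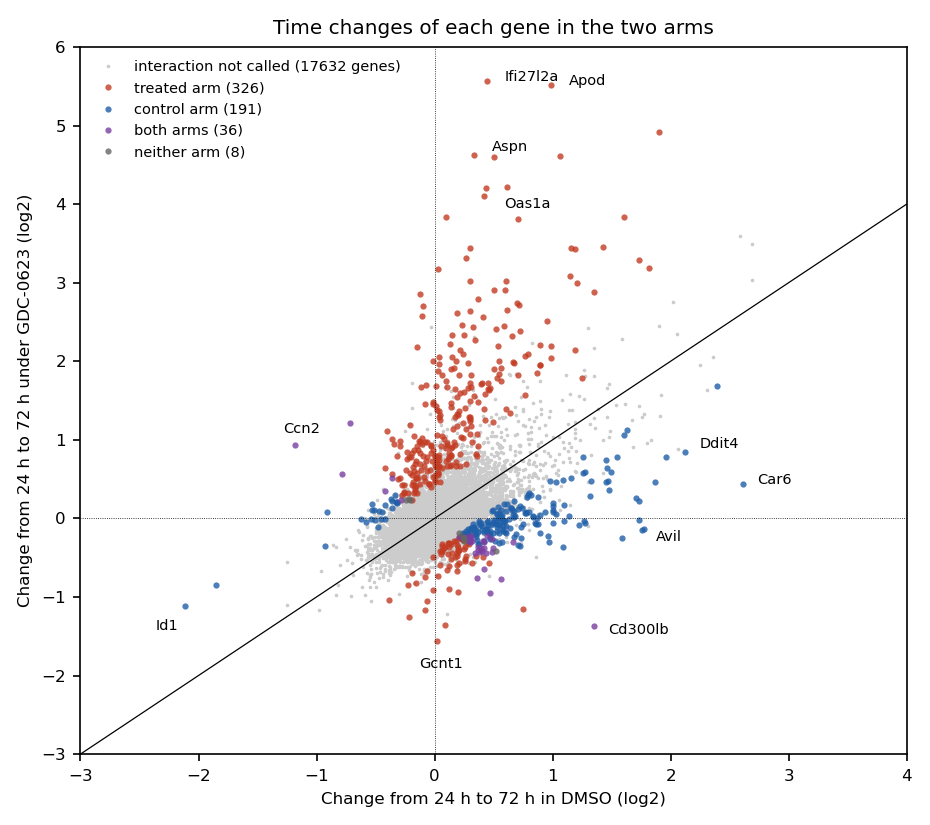
Each point is 1 gene, with its change from 24 h to 72 h in DMSO on the x axis and under GDC-0623 on the y axis, both in log2 units, and the diagonal marks equal changes (no interaction). The 326 treated-arm genes lie mostly above the diagonal along the vertical, and the 191 control-arm genes mostly below it along the horizontal.

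As a background, the change with time under GDC-0623 passed as a rise in 1568 genes (8.62%) and as a fall in 1597 (8.78%), and that in DMSO as a rise in 1344 (7.39%) and as a fall in 764 (4.20%). The drug effect passed as higher in 13.0% and as lower in 7.88% of genes at 24 h, and as higher in 16.4% and as lower in 16.0% at 72 h. Of the 295 higher interaction genes, 126 were already called higher under drug at 24 h and 151 had no called effect there. Of the 266 lower genes, 90 were called higher at 24 h, 51 lower, and 125 had no called effect. By the drug effects at the 2 times, 277 higher genes had a rise under drug that grew and 12 a fall that faded. Among the lower genes, 176 had a fall under drug that grew and 71 a rise that faded.

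Interferon-stimulated genes made up the clearest group of gains. Of 37 measured genes in the type I interferon list, 30 had a higher interaction and none a lower one, all 30 in the treated arm, with a list median of 1.29 against -0.01 over all genes. Under GDC-0623, 35 of the 37 rose from 24 h to 72 h, with a median of 2.14. In DMSO 16 of the 37 also rose, with a median of 0.50, so the control cells moved in the same direction by less. Without replicate 1 of 72h GDC-0623 the median was 1.06 and 29 genes were higher.

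Ifi27l2a, a small interferon-induced membrane protein gene, had the largest interaction of all named genes. Its log2 values were 3.37, 3.08 and 3.25 in 24h DMSO, 3.74, 3.54 and 3.76 in 72h DMSO, 3.35, 3.44 and 3.59 in 24h GDC-0623, and 9.72, 8.36 and 8.99 in 72h GDC-0623. Only the last group left the background range, and it did not overlap the others. The interaction was 5.12 (SE 0.33, limma adjusted p = 1.21e-05), and 4.77 without the replicate that stood apart.

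Oas1a, which makes the 2-5A messenger that activates RNase L, was well above background everywhere. It read 6.37, 6.16 and 6.38 in 24h DMSO, 6.95, 6.62 and 6.66 in 72h DMSO, and 6.95, 6.62 and 6.25 in 24h GDC-0623. In 72h GDC-0623 it read 11.55, 10.17 and 10.70. The first 9 values span 6.16 to 6.95 and the last 3 stand clear above them, which gives an interaction of 3.76 (SE 0.37, adjusted p = 0.000131), or 13.5-fold. The drug effect was 1.23-fold at 24 h and 16.7-fold at 72 h.

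Zbp1, a sensor of Z-form nucleic acid, followed the same course. Its values were 4.95, 5.24 and 4.93 in 24h DMSO, 5.75, 5.44 and 5.43 in 72h DMSO, 5.15, 5.35 and 4.88 in 24h GDC-0623, and 10.31, 9.27 and 9.61 in 72h GDC-0623. The treated cells at 72 h were again apart from all other arrays, with an interaction of 4.10 (SE 0.29, adjusted p = 1.56e-05). Oas2, a relative of Oas1a, had an interaction of 3.69.

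The proximal promoters of these genes were read for GAAANNGAAA on either strand (N stands for any base), the pattern of the element bound by interferon-activated STAT and IRF complexes. Windows ran from 250 bases before to 50 bases after each RefSeq gene start. Of the 25 treated-arm gains with the largest interactions among genes with a group mean of at least 6, 14 had a window and 4 held the pattern. These 4 are printed because they show where it lies in genes that gained most, 5′ to 3′ on the strand of the gene, with the pattern in capitals as read on either strand.
Oas1a: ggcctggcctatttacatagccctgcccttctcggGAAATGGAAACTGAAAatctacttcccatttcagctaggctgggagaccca
Ifit3: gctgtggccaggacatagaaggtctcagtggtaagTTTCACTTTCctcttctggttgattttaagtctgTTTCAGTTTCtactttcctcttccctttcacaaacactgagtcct
Slfn8: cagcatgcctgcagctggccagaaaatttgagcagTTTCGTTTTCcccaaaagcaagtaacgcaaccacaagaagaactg
Gbp3: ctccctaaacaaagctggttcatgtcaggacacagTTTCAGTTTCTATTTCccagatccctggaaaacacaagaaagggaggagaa
On GRCm38.p6 these stretches are chr5:120907495-120907580 on the minus strand for Oas1a, chr19:34583338-34583451 on the plus strand for Ifit3, chr11:83020814-83020893 on the minus strand for Slfn8 and chr3:142559964-142560049 on the plus strand for Gbp3. The 2 matches of Oas1a overlap and begin 20 and 14 bases before the start. Those of Gbp3 also overlap and begin 45 and 39 bases before it, while those of Ifit3 begin 156 and 122 bases before it and that of Slfn8 48 bases before it.

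Over all genes with a window the pattern was found in 523 of 14368 (3.6%). It was found in 41 of 195 (21.0%) higher treated-arm genes and in 11 of 26 (42.3%) genes of the type I interferon list. Outside the 2 interferon lists it was still found in 28 of 168 (16.7%) higher treated-arm genes. It was found in 5 of 125 (4.0%) lower control-arm genes, in 0 of 52 lower treated-arm genes and in 0 of 21 higher control-arm genes. These shares are descriptions, and a match is not a bound site.

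Of 28 genes in the interferon-gamma and JAK/STAT list 11 were higher and none lower, with a median of 0.69. Without replicate 1 of 72h GDC-0623 the median was 0.45 and 11 genes were higher. The GTPases Iigp1 and Gbp3, which attack the vacuoles of intracellular microbes, had interactions of 3.54 and 2.24. Gbp3 had already risen in DMSO by 1.19 (adjusted p = 0.00298) and rose by 3.43 under GDC-0623. Stat2, a component of the complex that transmits the type I signal, had an interaction of 2.04, and its values in 72h GDC-0623, 9.15, 8.01 and 8.84, lay above the range of 4.58 to 6.15 on all other arrays. Cd274, which encodes the checkpoint ligand PD-L1, read 8.02, 7.40 and 7.41 in 72h GDC-0623 and 5.61 to 6.33 elsewhere, an interaction of 1.19 (SE 0.20, adjusted p = 0.00626). Its drug effect was 1.19-fold at 24 h and 2.71-fold at 72 h.

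In the nucleic acid sensing list 6 of 16 measured genes were higher and none lower. Dhx58 (interaction 2.28), Tlr3 (1.32), Ifih1 (1.19) and Ddx58 (1.05) detect viral RNA, and 3 of these 4 are also interferon-stimulated list members. Ddx58 did not pass in DMSO (a change of -0.08), while Dhx58 rose there by 1.15 (adjusted p = 0.00101). The interaction of the chemokine Cxcl9, which attracts T cells, was 2.09, from 3.91 to 4.48 on 9 arrays to 7.04, 6.08 and 6.32 in 72h GDC-0623.

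MHC class I genes showed drug effects that grew by little. In this list 4 of 16 genes were higher, with a median of 0.36, and 15 of 16 rose with time under GDC-0623 against 4 in DMSO. Tap1, the peptide transporter subunit, had an interaction of 1.12 (adjusted p = 0.0014), while those of Tap2 (0.53, adjusted p = 0.0493), Tapbpl (0.56, adjusted p = 0.0451) and the immunoproteasome subunit Psmb10 (0.52, adjusted p = 0.0362) were near the threshold. Without replicate 1 of 72h GDC-0623 only Tap1 was called. The heavy chain H2-K1 (0.28, adjusted p = 0.326) and B2m (0.16, adjusted p = 0.51) did not pass. Of 8 class II genes none passed, close to the 1.62% higher and 1.46% lower of all genes.

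A second group of gains consisted of extracellular matrix genes, led by small leucine-rich proteoglycans, which bind collagen fibrils and growth factors. Of 11 measured, 8 were higher and none lower, all in the treated arm, with a median of 1.66. The list median of the change with time was 2.38 under GDC-0623 and 0.33 in DMSO. The interferon pattern was in 0 of 9 list members with a promoter window, beside 3.6% of all genes, and 9 windows are too few to set it apart.

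Aspn, a proteoglycan of this family, was at background in DMSO, with 2.80, 2.88 and 2.61 at 24 h and 2.97, 3.15 and 3.18 at 72 h. Under GDC-0623 it read 3.71, 3.38 and 3.47 at 24 h and 9.03, 7.63 and 7.77 at 72 h. Only treated cells at 72 h were clearly above background, and the interaction was 4.29 (SE 0.37, adjusted p = 5.48e-05). Without the array at 9.03 it was 3.84.

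Fmod, fibromodulin, had a different course, because a large part of its drug effect was present at 24 h. It read 3.51, 3.31 and 3.58 in 24h DMSO, 3.81, 3.51 and 3.77 in 72h DMSO, 5.98, 5.99 and 6.82 in 24h GDC-0623 and 8.78, 8.59 and 8.79 in 72h GDC-0623. The 4 groups overlapped only between the DMSO groups, and the drug effect grew from 6.95-fold to 32.5-fold, an interaction of 2.23. Both DMSO means (3.47 and 3.70) lay in the background range, so the size of these effects depends on the background. Prelp (2.71) and Lum (2.00) were also among the gains.

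Among other matrix genes 7 of 34 were higher and none lower. Postn, periostin, rose under GDC-0623 from 6.04, 5.76 and 5.84 to 10.19, 8.56 and 9.21 and read 4.09 to 4.69 on the 6 DMSO arrays, an interaction of 3.14 (adjusted p = 0.000858). Fbln5 (1.62), an elastic fibre protein, and the fibrillar collagen Col11a1 (1.56) followed. Apod, a secreted lipid-binding protein outside the lists, read 4.79 to 4.99 and 5.75 to 5.91 in DMSO at 24 h and 72 h, 5.53, 5.44 and 4.96 under the drug at 24 h and 11.46, 10.29 and 10.72 at 72 h. It rose in DMSO by 0.99 (adjusted p = 0.0125) and under GDC-0623 by 5.51, with an interaction of 4.53 (SE 0.31, adjusted p = 1.56e-05).

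Secreted factors were among the gains too, with Cxcl9 (2.09) and Ccl7 (1.92) the largest of the named chemokines. Of 32 chemokines and cytokines 6 were higher, including Ccl2 (1.52) and Cxcl12 (1.46), attractants of monocytes and lymphocytes, and of 9 complement genes 4 were higher, with C1s1 (2.32) and C1ra (1.35), the proteases of the first component. C1s1 rose from 5.40, 5.52 and 6.04 at 24 h to 9.20, 8.13 and 8.37 at 72 h under the drug, above the 6 DMSO arrays at both times. Of the NF-kB list 3 of 15 were higher (Tnfaip3 1.12, Nfkbie 0.63 and Nfkbia 0.58, feedback inhibitors) and Traf1 was lower (-0.55). Nfkbia belonged to the control arm, with a change of -0.36 in DMSO (adjusted p = 0.0316) and of 0.22 under GDC-0623 (adjusted p = 0.161). Nfkbie was called in 3 and Nfkbia in 2 of the 12 fits that left out 1 array, and Cxcl12 in 6.

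**Figure D2:**
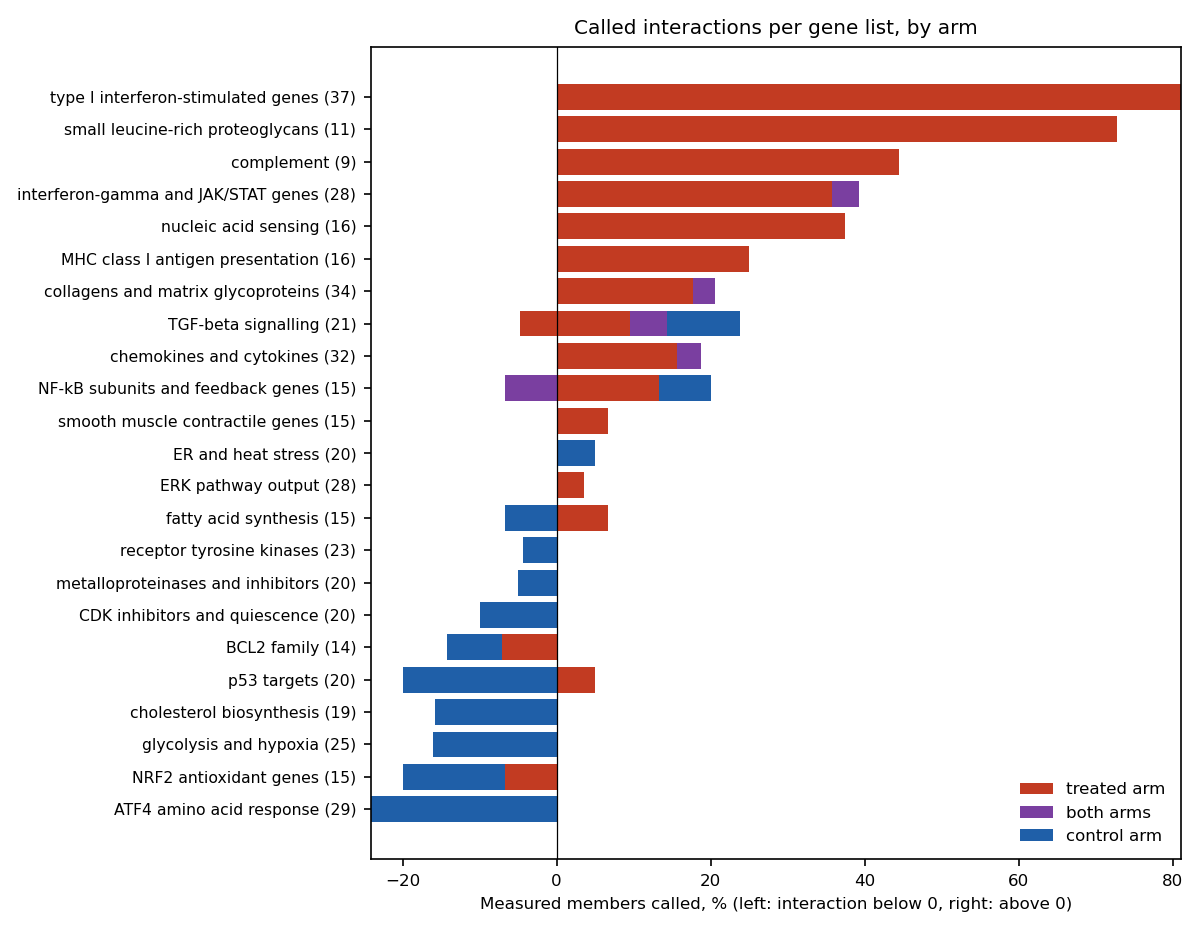
Share of the measured members of each gene list (number in parentheses) with a called interaction, in percent, to the right of 0 for higher and to the left for lower, coloured by arm, for the lists with at least 1 call. The type I interferon list (30 of 37) and the proteoglycans (8 of 11) extend furthest to the right in the treated arm, and the ATF4 list (7 of 29) furthest to the left in the control arm.

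A small number of higher interactions were losses of the controls. Id1 and Id2, inhibitors of helix-loop-helix transcription factors and targets of BMP signalling, fell with time in both arms but by less under drug. Id2 read 9.47, 9.54 and 9.59 in 24h DMSO and 7.76, 7.90 and 7.39 in 72h DMSO, against 10.80, 10.61 and 10.74 and then 10.24, 9.82 and 9.54 under GDC-0623. The DMSO fall was 1.85 on the log2 scale and that under GDC-0623 0.85, and this difference is the interaction of 1.00 (adjusted p = 0.0289), although the treated arm fell too. Id1 and Id2 were each called in 5 of the 12 fits that left out 1 array, with adjusted p up to 0.0778 and 0.0838. Smim4, a small membrane protein gene, fell by 0.91 in DMSO (adjusted p = 6.39e-05) with an estimate of 0.08 under GDC-0623 (adjusted p = 0.644). For Ccnd3, a D-type cyclin, the DMSO change was -0.53 (adjusted p = 0.000523) and that under GDC-0623 was 0.18 (adjusted p = 0.114).

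In 6 genes the controls fell with time and the treated cells rose. Ccn2, connective tissue growth factor, read 7.89, 8.01 and 8.25 in 24h DMSO and 6.75, 7.09 and 6.77 in 72h DMSO, and 9.57, 9.47 and 9.86 and then 11.17, 10.39 and 10.14 under GDC-0623. It fell by 1.18 in the controls and rose by 0.93 in treated cells, so the interaction of 2.11 (SE 0.29, adjusted p = 0.00164) came from both. Ccl7, a monocyte chemokine, had an interaction of 1.92 from a fall of 0.71 and a rise of 1.21, and the matrix protein gene Thbs1 one of 1.35. Socs1, the inhibitor of JAK kinases, was lower under drug at 24 h and higher at 72 h, with an interaction of 0.87.

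**Figure D3:**
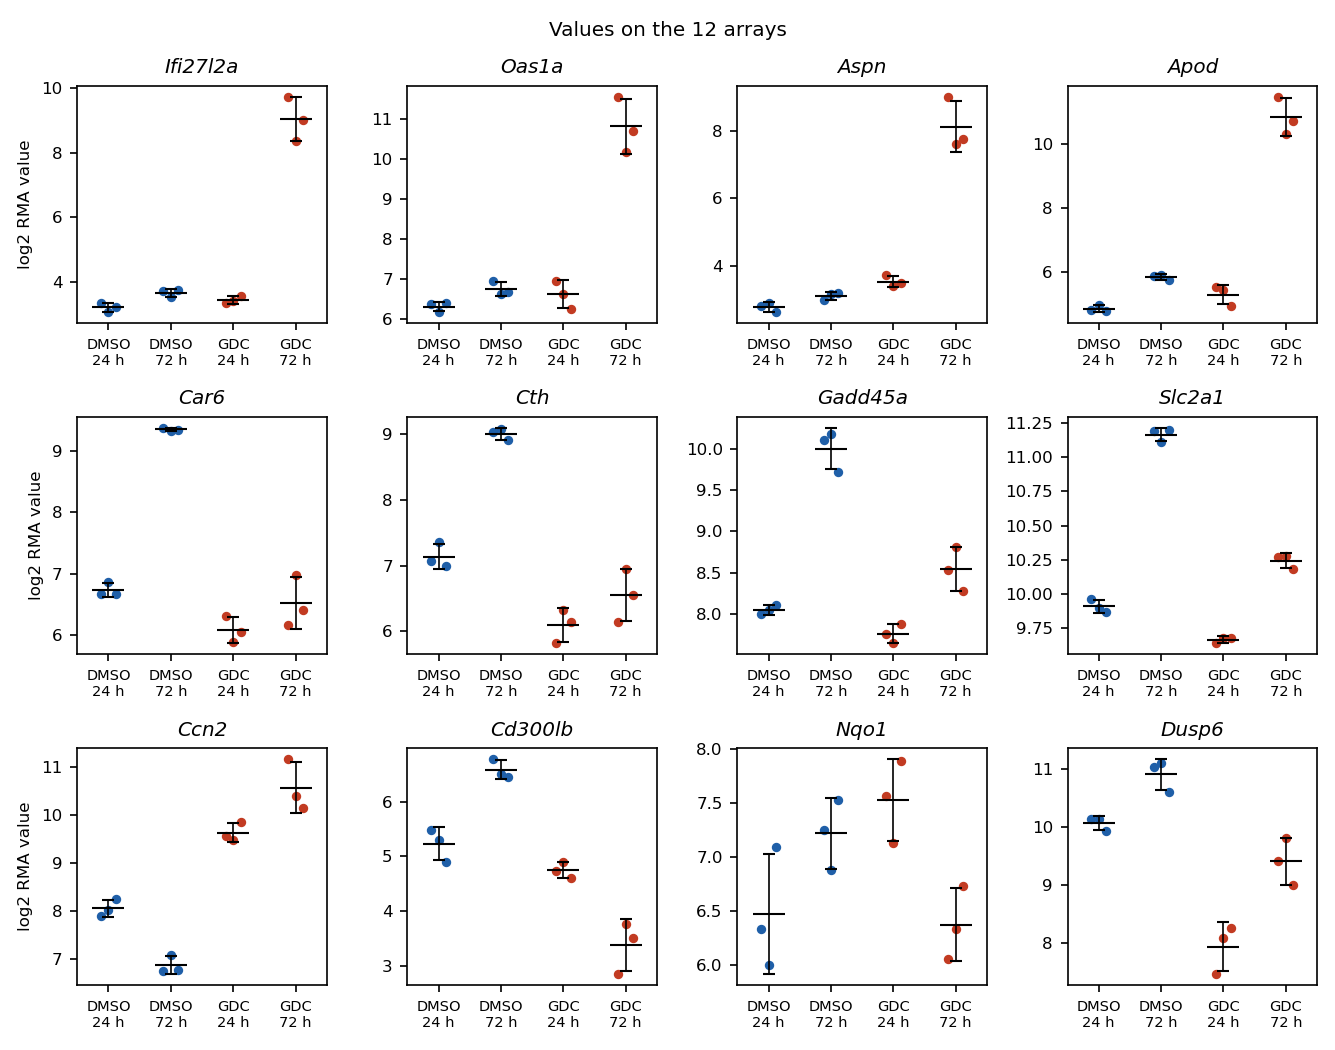
Log2 RMA values of 12 genes on each of the 12 arrays (points, blue for DMSO and red for GDC-0623), with the mean and SD of each group of 3 as black bars, and axes that differ between genes. The top row shows gains largest in 72h GDC-0623, the middle row rises of 72h DMSO that were smaller under drug, and the bottom row Ccn2 and Cd300lb, which moved apart in the arms, Nqo1, whose drug effect changed sign, and Dusp6, whose interaction did not pass.

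The lower interactions were led by genes that rose in DMSO. Car6, a secreted carbonic anhydrase, read 6.67, 6.87 and 6.67 at 24 h and 9.38, 9.33 and 9.35 at 72 h in DMSO, and 6.31, 5.88 and 6.05 and then 6.16, 6.98 and 6.41 under GDC-0623. The 72h DMSO arrays stood more than 2 log2 units above the other 9, after a rise of the controls by 2.62 (adjusted p = 5.42e-07) with no called change in treated cells (0.44, adjusted p = 0.0948). The drug effect was -0.66 at 24 h (adjusted p = 0.0139) and -2.84 at 72 h. The interaction was -2.18 (SE 0.23, adjusted p = 0.00026).

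Avil, an actin-severing protein of the villin family, followed the same course. It read 8.41, 8.20 and 8.06 in 72h DMSO and from 5.99 to 6.62 on the other 9 arrays. Only the 72h controls stood apart from the other arrays, which gave an interaction of -1.90 (adjusted p = 0.000235). Cxadr, a cell adhesion protein used as a virus receptor, had one of -1.91, Taf7l one of -1.84 and Tcim one of -1.76. The rises in DMSO were 1.77, 1.59 and 1.73, and none of the 3 passed under the drug. Taf7l and Tcim had means under 5 in every group except 72h DMSO, so their changes depend on the background. Cxadr was called in 9 of the 12 fits that left out 1 array. Its mean in 72h GDC-0623 was 4.92, in the background range, so its interaction depends on the background too. Without replicate 1 of that group the interaction of Cxadr was -1.49.

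Amino acid response genes regulated by ATF4 had the highest share of lower interactions among the lists. Of 29 measured, 7 were lower and none higher, all 7 in the control arm, with a list median of -0.33. Without replicate 1 of 72h GDC-0623 the median was -0.19 and 7 genes were lower. In DMSO 18 of 29 rose (median 0.49) and under GDC-0623 11 of 29 (median 0.09). Cth, which makes cysteine from cystathionine, read 7.07, 7.36 and 6.99 at 24 h and 9.03, 9.09 and 8.91 at 72 h in DMSO, and 5.82, 6.33 and 6.14 and then 6.15, 6.95 and 6.56 under GDC-0623. The drug arrays lay below the DMSO arrays of the same time throughout, and the interaction was -1.41 (SE 0.25, adjusted p = 0.00753). The glycine transporter Slc6a9 rose by 1.14 in DMSO with an estimate of 0.03 under GDC-0623 (adjusted p = 0.885), an interaction of -1.12. Slc7a11, the cystine importer, had one of -0.99, and Gpt2, a mitochondrial alanine aminotransferase, one of -0.86. That of Slc7a11 was called in 4 of the 12 fits that left out 1 array and not without replicate 1 of 72h GDC-0623 (adjusted p = 0.0536).

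Genes of glycolysis and hypoxia rose in both arms, 14 of 25 in DMSO and 19 of 25 under GDC-0623, and 4 had a lower interaction with all 4 in the control arm. Ddit4, an inhibitor of mTORC1, rose by 2.12 in DMSO and by 0.85 under GDC-0623, an interaction of -1.28 (adjusted p = 0.00783). Slc2a1, the glucose transporter GLUT1, read 9.96, 9.90 and 9.87 and then 11.19, 11.11 and 11.20 in DMSO, and 9.64, 9.68 and 9.68 and then 10.27, 10.28 and 10.18 under drug. Both arms rose without overlap between times, and the interaction of -0.68 (SE 0.09, adjusted p = 0.00121) was a smaller rise, not a fall. Ndrg1 (-1.12) and Ankrd37 (-0.90), both induced by low oxygen, had lower interactions too, that of Ankrd37 in 7 of the 12 fits that left out 1 array, while the list median was 0.02 (-0.12 with a shift by hybridization controls).

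Sterol enzymes rose in nearly all cases, 18 of 19 in DMSO (median 1.03) and 19 of 19 under GDC-0623 (median 0.84). Only Msmo1, Fdft1 and Hmgcs1 were lower, at -0.54, -0.50 and -0.48, and all were called in fewer than the 12 fits that left out 1 array. The 2 stearoyl-CoA desaturases moved in opposite directions. Scd2 had an interaction of -0.76 (adjusted p = 0.0232), from rises of 1.55 in DMSO and 0.79 under drug, and was called in 8 of those fits. Scd1 had one of 0.54 (adjusted p = 0.0106), from rises of 1.25 and 1.79.

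Among p53 targets 4 of 20 were lower and Fas, a death receptor, was higher (0.79). Fas was called in 4 of the 12 fits that left out 1 array and not without replicate 1 of 72h GDC-0623 (adjusted p = 0.0554). Gadd45a, a stress-induced growth arrest gene, read 7.99, 8.04 and 8.11 and then 10.12, 10.19 and 9.72 in DMSO, and 7.75, 7.64 and 7.87 and then 8.53, 8.81 and 8.28 under GDC-0623. It rose in both arms, by 1.96 and by 0.79, with an interaction of -1.18 (adjusted p = 0.00473). Cdkn1a, which encodes the CDK inhibitor p21, rose by 1.01 in DMSO with an estimate of 0.16 under drug (adjusted p = 0.364), an interaction of -0.85. Its drug effect was thus 0.47 at 24 h and -0.38 at 72 h. Cdkn2b, p15, had an interaction of -0.69, called in 4 of the 12 fits that left out 1 array.

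Falls of the treated cells themselves were a minority of lower interactions. Gcnt1, which branches mucin-type glycans, read 7.05 to 7.30 on the 6 DMSO arrays, and 8.03, 7.78 and 7.45 and then 6.49, 6.13 and 5.97 under GDC-0623. It moved from above the controls to below them while the estimate in DMSO was 0.02, an interaction of -1.58 (SE 0.20, adjusted p = 0.00106). Adam8, a membrane metalloproteinase, fell in treated cells by 1.35 with an estimate of 0.09 in DMSO, an interaction of -1.44. Bok, a pro-apoptotic BCL2 relative, read 8.79 to 8.93 in DMSO, 9.05, 9.18 and 9.09 at 24 h under drug and 7.99, 8.08 and 8.11 at 72 h, an interaction of -0.98 (adjusted p = 0.000112).

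Other treated-arm losses were early rises that faded. The transcription factor gene Maf read 6.17 to 6.37 in DMSO, 7.98, 8.15 and 7.91 under drug at 24 h and 6.92, 6.68 and 6.93 at 72 h. Its drug effect shrank from 3.20-fold to 1.51-fold, and each treated array read above each DMSO array. Tgfb3, a TGF-beta ligand, behaved alike, from 3.32-fold to 1.98-fold, with an interaction of -0.74 (adjusted p = 0.0067). The metalloproteinase gene Mmp11 had an effect of 2.56-fold at 24 h and 1.13-fold at 72 h, but there the controls rose by 0.96 and the estimate in treated cells was -0.22 (adjusted p = 0.198).

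In 30 lower genes the controls rose with time and the treated cells fell. Cd300lb, an immune receptor gene, read 5.49, 5.29 and 4.90 and then 6.78, 6.51 and 6.45 in DMSO, and 4.74, 4.90 and 4.60 and then 2.85, 3.77 and 3.52 under GDC-0623. The rise of 1.35 in controls and the fall of 1.37 in treated cells gave -2.72 (SE 0.28, adjusted p = 0.000224), the largest lower interaction of the named genes. Both treated groups lay in or below the background range, so the fall and the interaction depend on the background. Mex3b, an RNA-binding protein gene, had an interaction of -1.43. Cdk5rap1, an enzyme that modifies tRNA, had one of -1.11 as the arms approached each other, with a drug effect of 0.88 at 24 h and -0.24 at 72 h (adjusted p = 0.0694). By the drug effects, 21 of the 30 were falls that grew, 5 were rises that faded and 4 changed direction.

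Among the 561 genes with a called interaction, drug effects passed in opposite directions at the 2 times in 25, of which 6 were higher and 19 lower. Ifi209, an interferon-inducible gene, read 5.86, 6.50 and 5.99 in 24h DMSO and 4.91, 5.02 and 4.53 in 24h GDC-0623, so the drug effect was -1.30. The 24h GDC-0623 mean of 4.82 lay in the background range, so the size of this effect depends on the background. At 72 h Ifi209 read 6.42, 6.61 and 6.54 in DMSO and 7.88, 6.91 and 7.35 under drug, an effect of 0.86, and the interaction was 2.15 (adjusted p = 0.00174). Nqo1, a quinone reductase regulated by NRF2, went the other way, with an effect of 1.06 at 24 h and -0.85 at 72 h and an interaction of -1.90 (SE 0.38, adjusted p = 0.0159). Its replicates were spread widely, with an SD of 0.56 in 24h DMSO. With Srxn1 (-0.84) and Slc7a11, 3 of 15 NRF2 genes were lower and none higher. Morrbid, a long noncoding RNA, had an interaction of 1.29.

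Of 28 ERK output genes, which report activity downstream of the drug target, 1 had a called interaction, which is close to the background of 1.62% higher and 1.46% lower. The list median of the interaction was 0.03 (-0.11 with a shift by hybridization controls), and that of the drug effect was -0.78 at 24 h and -0.76 at 72 h. With time 12 of the 28 rose in DMSO (list median 0.44) and 14 under GDC-0623 (list median 0.40), and none fell in either arm. Egr1, an immediate early transcription factor gene, showed this, with 9.09, 9.00 and 8.86 and then 11.74, 11.58 and 10.55 in DMSO against 3.81, 4.31 and 4.13 and then 6.61, 5.73 and 4.83 under drug. The arms did not overlap at either time, and the interaction of -0.67 (SE 0.51, adjusted p = 0.612) did not pass. Dusp6, the ERK phosphatase, had one of 0.63 (SE 0.30, adjusted p = 0.363), Etv5 of 0.65 (adjusted p = 0.615) and Etv4 of 0.45 (adjusted p = 0.153). In 24h GDC-0623 Egr1 lay in the background range and so did the mean of Etv5 (4.77). The drug effects of these 2 genes at 24 h, and their interactions, therefore depend on the background.

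Spry2 was the exception. It read 6.84, 6.97 and 6.83 and then 7.65, 7.74 and 7.25 in DMSO, and 5.64, 5.98 and 6.02 and then 8.01, 8.01 and 7.60 under GDC-0623. This feedback inhibitor of receptor signalling went from below the controls to an overlap with them, with an interaction of 1.33 (SE 0.20, adjusted p = 0.00292). Myc (-0.14, adjusted p = 0.749), Ccnd1 (0.01, adjusted p = 0.988) and the targets Map2k1 (-0.02, adjusted p = 0.964) and Map2k2 (0.06, adjusted p = 0.849) did not pass.

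Proliferation lists had no called interaction, close to the 1.62% higher and 1.46% lower of all genes, although they fell more often in treated cells. Over all genes 8.78% fell with time under GDC-0623 and 4.20% in DMSO. Of 32 DNA replication genes 20 fell with time under GDC-0623 and 9 in DMSO, of 29 mitosis genes 19 and 1, and of 31 ribosome biogenesis genes 15 and 5. The list medians of the interaction were -0.16, -0.24 and -0.11, and -0.03, -0.10 and 0.01 without replicate 1 of 72h GDC-0623. More calls in one arm than in the other is therefore not a difference that passed the test between the arms. Mki67 had an interaction of -0.15 (adjusted p = 0.747).

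**Figure D4:**
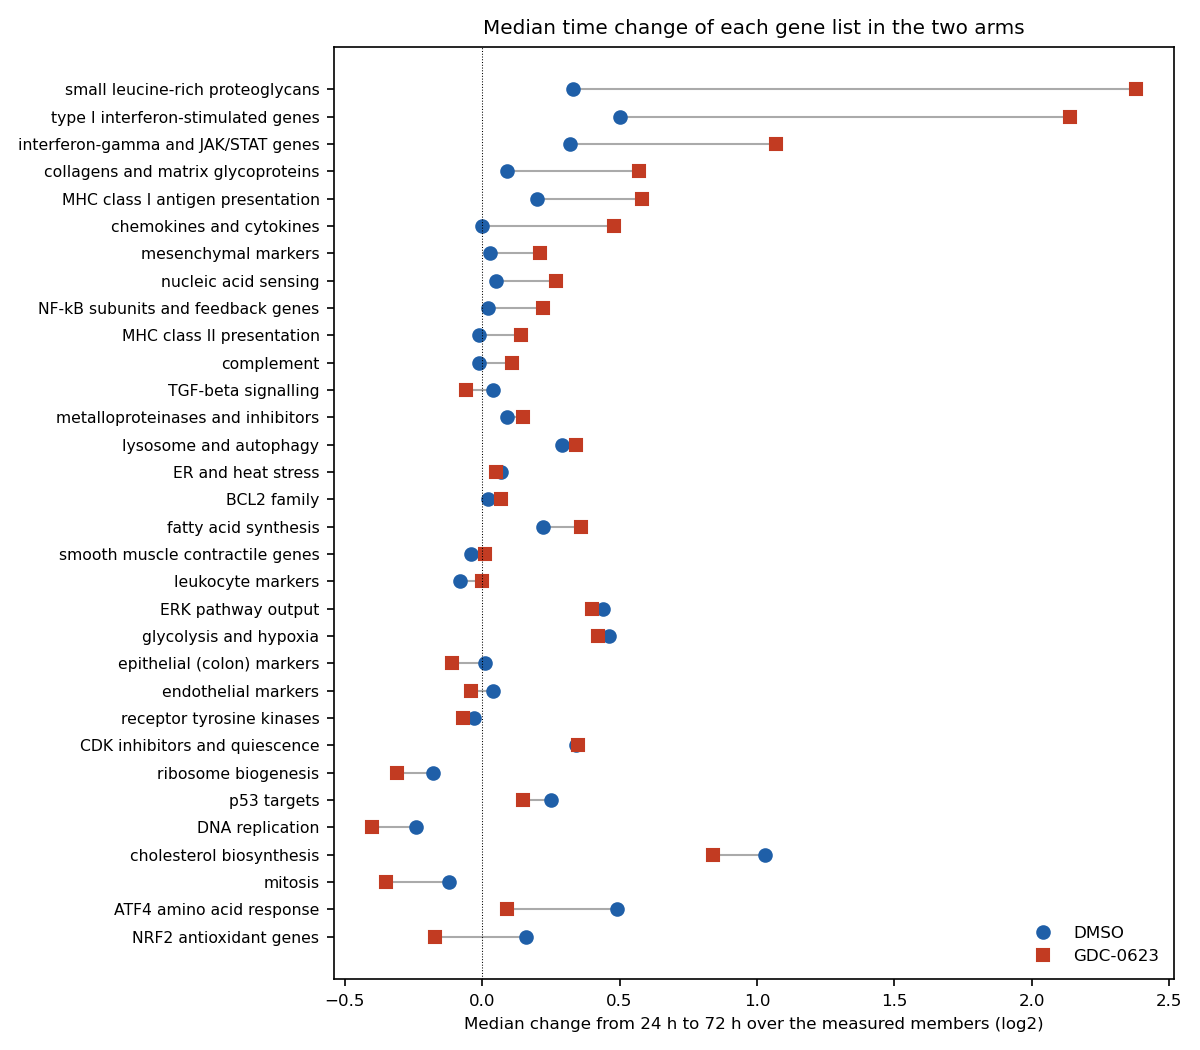
Median change from 24 h to 72 h over the measured members of each list in log2 units, as a blue circle for DMSO and a red square for GDC-0623, joined by a line and ordered by the median interaction. The proteoglycans (0.33 and 2.38) and type I interferon genes (0.50 and 2.14) have the widest gaps, while the ERK output symbols nearly coincide (0.44 and 0.40).

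Markers of other cell types were examined beside these lists. None of 13 leukocyte, 8 endothelial and 11 colon epithelial markers had a called interaction, close to the 1.62% higher and 1.46% lower of all genes. The mean level of each list lay in the background range on every array, from 4.25 to 4.44 for the leukocyte list. Of the leukocyte markers 7 of 13 had every group mean under 5, and the others reached at least 5 in 1 group or more. Among the 7, Ptprc, which defines leukocytes, read 2.75 to 2.91 as group means. With time 1 of the 13 rose in DMSO and 1 under GDC-0623, close to the 7.39% and 8.62% of all genes. Mesenchymal markers were high on all arrays, with list means from 9.48 to 10.20, and none of 9 passed. Of the epithelial markers 8 of 11 had every group mean under 5, among them Cdh1 at 2.61 to 2.72. The others reached at least 5 in 1 group or more, among them Epcam at 5.34 to 5.62, above the background range. Most of the listed markers of colon epithelium, but not all, were thus at or below background in this carcinoma line.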

How the data were processed

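RNA from 12 cultures was amplified from the 3′ end and hybridised to one-colour Affymetrix mouse arrays. The authors deposited log2 values from RMA, which corrects background, quantile normalises the arrays and thereby removes shifts shared by most genes. The RMA version is not given in the sources used here. Of 45101 probe sets, 64 controls were left out and 45037 tested. Of these 34945 had 1 symbol, 932 several and 9160 none. Gene identifiers of 34741 were matched in a reference table, and each of 18193 genes was represented by its single-symbol probe set with the highest mean over the 12 arrays.

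limma 3.58.1 (R 4.3.3) was fitted to all 4 groups at once, with moderated two-sided tests, p-values adjusted (Benjamini-Hochberg) over the 45037 probe sets and 0.05 as threshold. The fit was tested on simulated data. Median SEs were 0.13 for the interaction and 0.09 for a time change. With 3 arrays a group, their number limits the precision.

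Named genes were, per direction and arm, the 5 with the largest interaction and a group mean of at least 6, up to 4 per list, up to 5 reversals and a fixed set; Ifit3 and Slfn8 are named for their promoters. The members and lists were chosen with earlier results of these data known. Alternatives were a replicate block, a filter on dim probe sets, repeated quantile normalisation, a shift by 18 hybridization controls, a trended robust prior, array weights, averaged probe sets, each arm fitted alone and leaving out each array. Promoters came from RefSeq (GRCm38.p6).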

Additional observations from a re-analysis of the deposited data

Results flagged for a closer look

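The drug effect differed between 24 h and 72 h, by the interaction test, in 295 genes that were higher and 266 that were lower, and every gene described above as called meets the same condition. Drug effects of opposite direction passed at the 2 times in Ifi209 (interaction 2.15), Nqo1 (-1.90), Gcnt1 (-1.58), Morrbid (1.29) and Id1 (1.00), the 5 genes named for this pattern. The named genes Socs1 and Cdkn1a had it too, with drug effects of -0.47 and 0.47 at 24 h and 0.40 and -0.38 at 72 h. Id1 fell in both arms, by 2.11 in DMSO and by 1.12 under GDC-0623, and its adjusted p reached 0.0778 when single arrays were left out. Its drug effect of -0.47 at 24 h was at the threshold (limma adjusted p = 0.05 after rounding).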

How the results depend on the processing

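The replicate block, the filter on dim probe sets, the trended robust prior and the fits of each arm alone leave every kept interaction estimate unchanged. Its direction could not differ there. Under the other refits the direction was the same for all 561 genes, and no named gene reversed. The numbers of calls moved more. Leaving out 1 array at a time gave 193 to 367 higher genes (treated arm 175 to 323, control arm 10 to 29, both arms 3 to 8) and 159 to 294 lower genes (treated arm 37 to 83, control arm 102 to 180, both arms 12 to 25). Higher genes numbered 193 without replicate 2 of 24h GDC-0623 and 193 without replicate 2 of 72h DMSO. Lower genes numbered 171, 163 and 171 without replicates 1, 2 and 3 of 24h DMSO, 175, 159 and 175 without those of 72h DMSO, and 167 without replicate 2 of 24h GDC-0623. In all 12 such fits, 174 higher and 127 lower genes were called. Deviations from the group mean correlated from -0.036 to 0.289 between arrays of the same replicate number. Arrays of different numbers were not compared, so whether the numbers pair the samples is not settled. A replicate block gave 361 higher and 349 lower genes, 48 of the latter in both arms. The filter on dim probe sets gave 466 lower genes (137 treated arm, 254 control arm, 66 both) and 50 and 21 higher genes in the control arm and both arms. A shift by hybridization controls moved the median interaction of all genes from -0.01 to -0.15, with 203 higher and 370 lower genes, 4 higher in the control arm, 3 in both, and 130 lower in the treated arm, and turned list medians near 0, such as that of ERK output (-0.11), to the opposite sign. A trended robust prior gave 420 lower genes (126 treated arm, 54 both) and 38 and 14 higher genes in the control arm and both. Array weights gave 11 higher genes in both arms. Averaging the probe sets gave 38 higher control-arm and 103 lower treated-arm genes, and it kept 270 of the 295 higher and 193 of the 266 lower calls. Fitting each arm alone left 12 lower genes in both arms. Assigning arms by the share of the interaction that each arm carried gave 27 higher and 71 lower genes in both. With a minimum size of 1, 144 higher (140 treated arm, 1 control arm, 3 both) and 37 lower genes (8, 24 and 5) were left. The causes were not tested.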

Other observations

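Several lists contained few or no called interactions. Over all genes 1.62% were higher and 1.46% lower. No call or 1 call in a list of this size is close to that background. The 24 lysosome and autophagy genes had none, with 12 rising under GDC-0623 and 10 in DMSO. Of 14 BCL2 family genes, Bok and Bbc3 (-0.63) were lower, and Bbc3 was called in 3 of the 12 fits that left out 1 array. Of 20 ER and heat stress genes only the cochaperone gene Dnajb1 was called (0.37, adjusted p = 0.0399), and it was called in none of the fits that left out an array. Of 15 contractile genes 1 was higher, of 20 metalloproteinases and inhibitors 1 was lower, and of 23 receptor tyrosine kinases Erbb3 was lower (-0.89), from a rise of 0.69 in DMSO. In TGF-beta signalling 5 of 21 were higher and 1 lower, with Ccn2, Id1 and Id2 among the former. Of 20 CDK inhibitors and quiescence genes 2 were lower.

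Of the 295 higher genes, 61 had means under 5 in every group except 72h GDC-0623, so their fold changes start in the background range. The same held for 13 of the 167 lower control-arm genes with 72h DMSO as the only group above 5. Among the named higher genes, Fmod, Prelp, Postn, C1s1, Cxcl12 and Iigp1 had means under 5 in both DMSO groups only. Their drug effects and interactions therefore depend on the background too. No called gene had another probe set called in the opposite direction, but the other probe sets were not always called, as for Spry2 and Maf. Of the 561 called genes 112 were in any of the lists.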
